A study of Rattus norvegicus with 28 samples.

Results

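The response of rat microglia to HERV-W ENV, an envelope protein encoded by an ancient retrovirus in the human genome, was compared gene by gene with their response to lipopolysaccharide (LPS), as ENV minus buffer less LPS minus H2O. All 12 microglial libraries of the series, which holds 28 libraries, entered: 3 each of ENV (1 µg/ml), its buffer, LPS (100 ng/ml) and H2O. The cells came from cortices of Wistar rats at postnatal day 1, were grown for 10 days in flasks, shaken off and enriched on CD11b/c beads, and were stimulated 1 day after isolation in medium with 10% FCS. The labels describe the same serum, culture and isolation procedure for all 4 groups. They do not say whether the ENV and LPS sets came from the same cultures. Messenger RNA was counted per gene, and 13270 of 23139 listed genes had enough counts to be tested. The labels name neither the length of the stimulation nor the litters behind the replicates, so that p-values reflect only how far these libraries lie apart, in part perhaps for technical reasons. The ENV and LPS libraries formed sets with their own vehicles and at 1 dose each, so that agent, dose and set cannot be told apart.

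LPS, a component of the outer wall of Gram-negative bacteria, is handed by CD14 to the receptor TLR4 with its partner MD-2 (gene Ly96). TLR4 signals along an arm through MyD88, which frees NF-kB and drives cytokine and chemokine genes, and along an arm through TRIF, which leads to type I interferon and then to the large group of interferon-stimulated genes. ENV, a retroviral surface glycoprotein, has been described as another ligand of TLR4. Microglia, the macrophages of the brain, answer such signals by secreting inflammatory mediators, presenting antigen and leaving the cell cycle. In each comparison a response is a log2 change against the vehicle, and a difference is the ENV response minus the LPS response, so that a negative difference means a larger rise, or a smaller fall, with LPS.

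All 18 markers of microglia and macrophages were detected in every group, with summed levels of 25091 to 28454 CPM (counts scaled to 1000000 per library) in ENV, 13841 to 18746 in buffer, 23560 to 31113 in LPS and 17047 to 21222 in H2O libraries. Totals ran from 26513999 to 42724111 counts per library, and a count of 0 allowed at most 3 counts, or 0.0649 to 0.112 CPM. LPS and H2O libraries numbered 3 stood apart: on the first principal component H2O library 3 lay at 69.3, against -22.7 and -21.9 for the others, and LPS library 3 lay at -62.2, against -132 and -126. The biological coefficient of variation was 23.0% among ENV and buffer libraries and 45.4% among LPS and H2O libraries, and it was 19.5% in the LPS and H2O set without its libraries numbered 3. Main results are therefore given with and without both. Oligodendrocyte-lineage markers, leaving out Cnp, which rose with both agents, summed to 106 to 201 CPM in ENV, 331 to 377 in buffer, 6.92, 7.14 and 50.0 in LPS, and 17.5, 17.6 and 180 in H2O libraries, with the value of library 3 last. Mog and Mobp were at 0 in ENV, Mog and Opalin in LPS, and Mag and Opalin in H2O libraries, while no member of this list was at 0 in buffer. In such bulk samples fewer cells of a type and less RNA per cell cannot be told apart, and the part of these cells in the results below was not tested.

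Both agents moved largely the same genes in the same direction. ENV changed 3066 genes (23.1% of those tested, 1807 up and 1259 down) and LPS 4911 (37% of those tested, 2410 up and 2501 down; edgeR's quasi-likelihood test, Benjamini-Hochberg adjusted p under 0.05). Under upper-quartile scaling, which placed the median gene at -0.20 in the ENV and -0.25 in the LPS response, the splits were 1223 up and 1925 down with ENV, and 1816 up and 3246 down with LPS. Of these genes 2640 were called in both responses, 1539 up in both, 1101 down in both and 0 with opposite signs, which is 86.1% of the genes called with ENV and 53.8% of those called with LPS. A further 426 genes were called with ENV alone and 2271 with LPS alone, but 99.0% of all genes called with ENV had the same sign in the LPS response, and 98.1% of those called with LPS had the same sign in the ENV response. Across the 5337 genes called in at least 1 response the log2 changes had a Pearson r of 0.914 and a Spearman rho of 0.930. Genes are not independent replicates, and the sets share no libraries. Without the LPS and H2O libraries numbered 3, r was 0.847 and 3215 genes were called in both, 12 of them with opposite signs. The number called was then 4620 with ENV and 4519 with LPS, so that the larger number of LPS calls depends on these libraries. Under limma voom with sample quality weights, over all 12 libraries, the calls were 6704 with ENV and 6009 with LPS.

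The LPS change was the larger one in 1810 of the 2640 genes called in both (68.6%), with median sizes of 1.11 log2 units for ENV and 1.32 for LPS. The total least squares slope of the LPS on the ENV change was 1.27 over the 5337 genes, 1.28 without the libraries numbered 3 and 1.46 without LPS library 3 alone. ENV calls numbered 1671 without ENV library 1, 1980 without buffer library 1 and 1942 without buffer library 2.

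**Figure D1:**
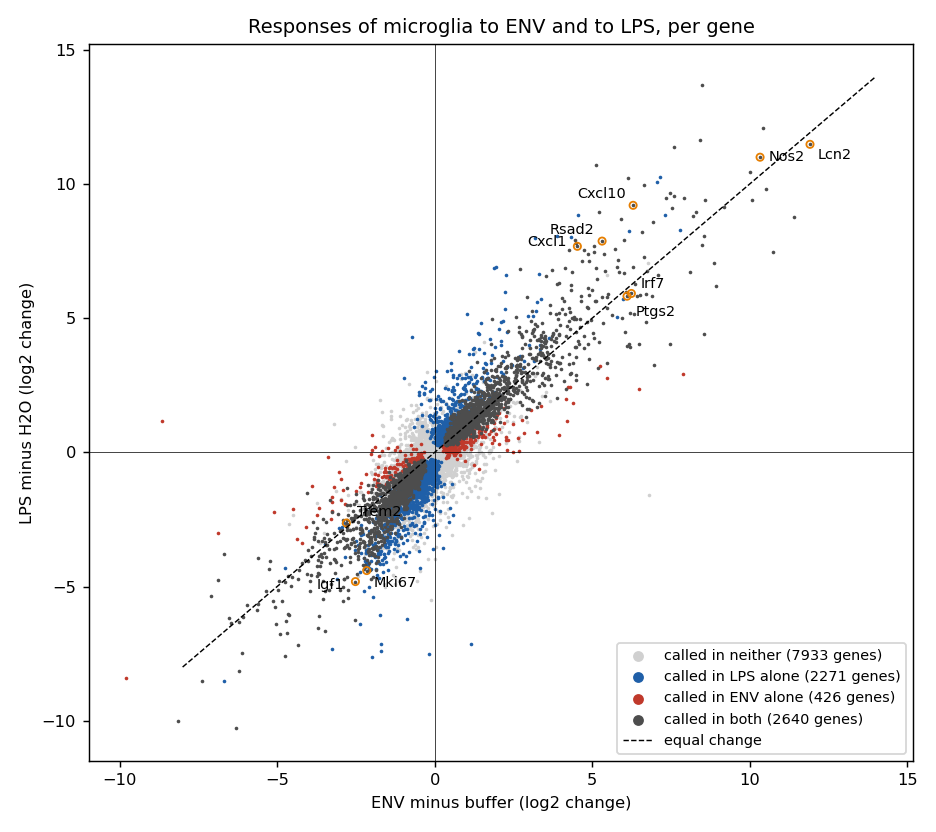
Log2 change with ENV (horizontal) against that with LPS (vertical) for the 13270 tested genes; dark points were called in both responses, red in ENV alone, blue in LPS alone, and circles mark panel genes. Over the genes called in at least 1 response the total least squares slope was 1.27, steeper than the line of equal change. Cxcl10, Rsad2 and Cxcl1 lie above the line of equal change, with a larger LPS change.

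The direct test of the difference called 0 genes (0% of those tested). Its smallest adjusted p was 0.195, and at an unadjusted p under 0.05 it gave 937 genes (7.06% of those tested), 614 with the ENV response above (4.63%) and 323 with the LPS response above (2.43%). The replicate block raised the count at the unadjusted threshold to 1628, and under DESeq2-type size factors the split was 413 against 496, so that this split depends on the scaling. DESeq2 called 67 of 13161 genes (0.509%), 23 with the ENV response above and 44 with the LPS response above, and limma voom with sample quality weights called 13 and 7, of which 17 genes in all were among those of DESeq2. Without the LPS and H2O libraries numbered 3, edgeR called 2 and 6 of 13320 genes (0.0601%) and 1467 at an unadjusted p under 0.05 (11%). The 95% interval of the difference lay wholly within 1 log2 unit of 0, which is 2-fold, for 6047 genes (45.6%), and for 1322 of the 2640 called in both responses. A failure to pass the test does not show that the responses were equal, and for the panel of inflammatory genes described below the median half-width of the interval was 1.96 log2 units.

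Genes are named here by the smallest p among those with an assigned symbol and a group mean that reached 10 CPM; Plppr4, whose highest group mean was 0.513 CPM, and 1 gene without a symbol had smaller p (adjusted p 0.195 for both, ENV response above). Of the 5 genes so named on the ENV side, all of which had lower means than the vehicle in both sets, none passed the adjusted threshold of the edgeR test over all 12 libraries. Ubqln2 had 15.8, 20.5 and 21.6 CPM in ENV, against 43.1, 44.2 and 48.7 CPM in buffer libraries, and 10.5, 10.8 and 10.4 CPM in LPS, against 46.9, 52.0 and 52.2 CPM in H2O libraries. Ubqln2 encodes a ubiquilin that escorts ubiquitinated proteins to the proteasome. It fell with both agents (ENV -1.23 ± 0.12, LPS -2.25 ± 0.12, log2 change ± SE), treated and vehicle libraries did not overlap in either set, and the difference was 1.02 (95% interval 0.63 to 1.41; adjusted p 0.474). Groups without overlap were common here and below. ENV libraries all lay above buffer libraries in 25.7% of all tested genes, and below them in 24.8%. LPS libraries all lay above H2O libraries in 22.6%, and below them in 25.8%. No such share was taken for ENV against LPS libraries or for buffer against H2O libraries. Where those groups are said to lie apart, here and below, this describes levels in different sets and is no result about the gene. Itga6 had 30.0, 40.7 and 29 CPM in ENV, against 150.4, 146 and 103 CPM in buffer libraries, and 13.8, 16.2 and 9.92 CPM in LPS, against 163, 165 and 229 CPM in H2O libraries. Itga6 encodes the laminin-binding integrin alpha6, fell with both agents, and differed by 1.80 (95% interval 1.08 to 2.52; adjusted p 0.522). Cul4b had 59.4, 57.7 and 60.0 CPM in ENV, against 67.6, 67.7 and 67.1 CPM in buffer libraries, and 53.2, 49.2 and 54.8 CPM in LPS, against 94.4, 88.7 and 91.9 CPM in H2O libraries. This scaffold of a ubiquitin ligase fell with LPS (-0.81 ± 0.083; adjusted p 9.10e-05) and did not pass with ENV (-0.19 ± 0.083; adjusted p 0.123), and its H2O libraries were all above its buffer libraries. The difference was 0.61 (95% interval 0.36 to 0.87; adjusted p 0.538). Pkia, which encodes an inhibitor of protein kinase A, differed by 2.06 (95% interval 1.15 to 2.98), and Cxxc5, a CXXC-type zinc finger gene, by 1.43 (95% interval 0.79 to 2.08); both fell with both agents. DESeq2 gave these 5 genes adjusted p-values of 1.64e-06 (Cul4b) to 0.00986 (Cxxc5), and over all alternatives they reached 0.973.

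On the LPS side the same rule named Sh3bp4, Ccrl2, Marcksl1, Hcar2 and Dynlt1, again with none called by edgeR over all 12 libraries. DESeq2 gave them adjusted p-values of 1.37e-04 (Sh3bp4) to 0.00123 (Hcar2), edgeR called Ccrl2 and Hcar2 without LPS library 2 (adjusted p 0.0449 for both), and over all alternatives the values reached 0.973. Ccrl2 had 7.59, 6.04 and 4.63 CPM in ENV, against 8.28, 7.06 and 7.26 CPM in buffer libraries, and 30.8, 18.5 and 57.0 CPM in LPS, against 6.84, 7.64 and 5.90 CPM in H2O libraries. Ccrl2 encodes a non-signalling receptor that holds the chemoattractant chemerin at the cell surface. It rose with LPS (2.38 ± 0.34; adjusted p 6.92e-04), where treated and vehicle libraries did not overlap, and not with ENV (-0.31 ± 0.34; adjusted p 0.571), where they did; the difference was -2.69 (95% interval -3.76 to -1.62; adjusted p 0.522). Hcar2 had 131, 97.0 and 77.7 CPM in ENV, against 19.9, 21.9 and 19.4 CPM in buffer libraries, and 305, 149 and 433 CPM in LPS, against 14.1, 11.3 and 12.7 CPM in H2O libraries. This receptor for hydroxybutyrate and niacin rose with both, and every LPS library was above every ENV library (difference -2.22, 95% interval -3.22 to -1.21; adjusted p 0.538). Dynlt1 had 121, 93.8 and 118 CPM in ENV, against 59.6, 62.9 and 73.8 CPM in buffer libraries, and 162, 186 and 245 CPM in LPS, against 59.6, 49.2 and 49.3 CPM in H2O libraries. Dynlt1, a dynein light chain gene, rose with both and differed by -1.15 (95% interval -1.68 to -0.61; adjusted p 0.538). The vehicles also differed, every buffer library being above every H2O library in Hcar2, Sh3bp4 and Marcksl1. Sh3bp4 had 29, 33.7 and 33.9 CPM in ENV, against 43.0, 59.4 and 39.96 CPM in buffer libraries, and 38.0, 29.8 and 44.9 CPM in LPS, against 12, 16.1 and 19.4 CPM in H2O libraries. Marcksl1 had 75.7, 70.6 and 86.3 CPM in ENV, against 87.8, 94.4 and 128 CPM in buffer libraries, and 128, 96.8 and 151 CPM in LPS, against 32.5, 44.1 and 64.7 CPM in H2O libraries. Buffer exceeded H2O by 1.58 log2 units for Sh3bp4 and by 1.13 for Marcksl1. The differences of the responses were -1.80 (95% interval -2.48 to -1.13) and -1.82 (95% interval -2.62 to -1.03). Among all 937 genes at the unadjusted threshold, the vehicles differed more than the treated groups in 287 (30.6%), against 44.2% of all tested genes.

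**Figure D2:**
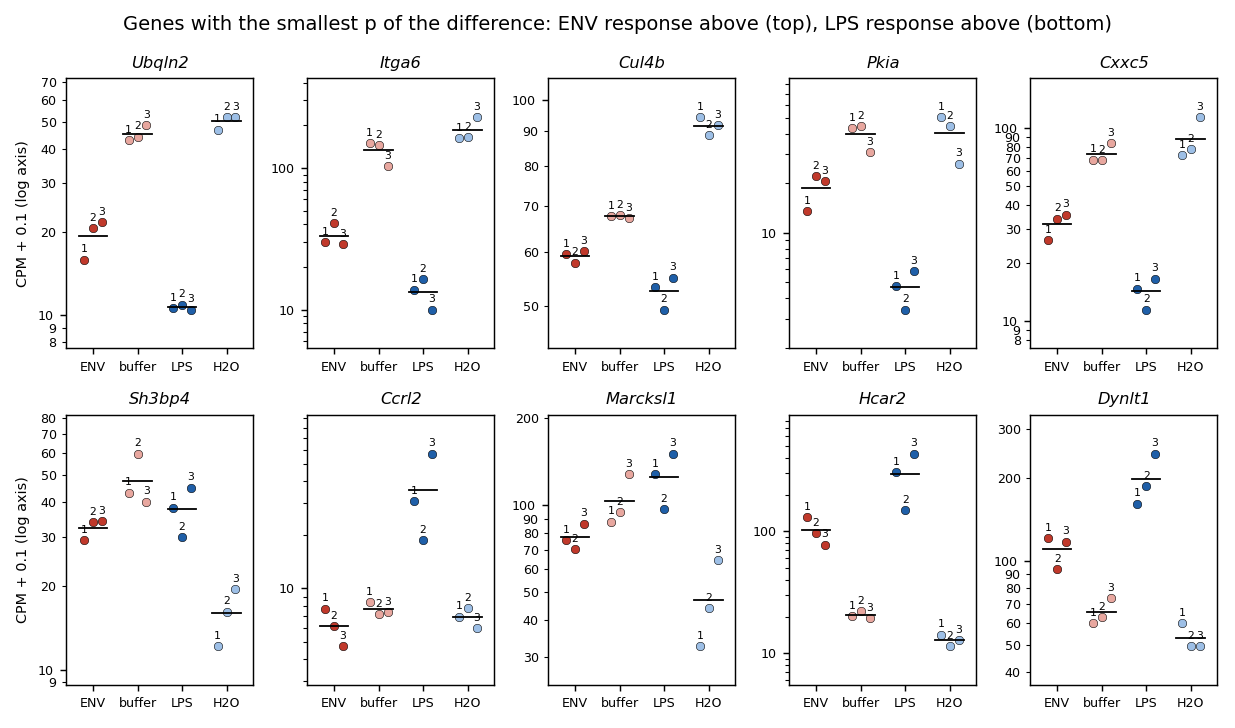
Level of 10 genes in each library (CPM plus 0.1, log axis; points numbered by replicate, bar the mean; ENV, buffer, LPS and H2O from left to right). In the top 5 genes the LPS libraries lie lowest, and in Sh3bp4 and Marcksl1 the H2O libraries lie below the buffer libraries.

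On the receptor side no difference was called, as among all tested genes. Of 17 tested members of the TLR4 list 9 had their whole interval within 1 log2 unit of 0, against 45.6% of all tested genes. In the list of the TLR4 complex and its adaptors, 7 of 17 tested members rose with ENV, and 5 rose and 1 fell with LPS, where 13.6% of all tested genes rose with ENV, and 18.2% rose and 18.8% fell with LPS; the median difference was 0.0046 (-0.143 to 0.082 over the alternatives) and no member was at an unadjusted p under 0.05. Ly96 had 79, 65.4 and 75.6 CPM in ENV, against 68.8, 68.0 and 89.9 CPM in buffer libraries, and 100.0, 92.2 and 74.3 CPM in LPS, against 96.4, 85.5 and 93.7 CPM in H2O libraries. MD-2, its product, binds the lipid part of LPS. Treated and vehicle libraries of Ly96 overlapped in both sets, and the 95% interval of its difference was -0.46 to 0.47. Over all 12 libraries it was the only interval in the panel of 31 tested genes that lay wholly within 1 log2 unit. Without the libraries numbered 3 there were 6. Cd14 had 1305, 842 and 1122 CPM in ENV, against 399.5, 408 and 350.0 CPM in buffer libraries, and 1576, 1069 and 2026 CPM in LPS, against 437, 244 and 325 CPM in H2O libraries. Cd14 rose with both agents (ENV 1.498 ± 0.27, LPS 2.21 ± 0.27), with treated libraries all above vehicle libraries, and differed by -0.72 (95% interval -1.56 to 0.13; adjusted p 0.732). Tlr4 had 38.5, 39.2 and 38.7 CPM in ENV, against 65.5, 67.4 and 38.6 CPM in buffer libraries, and 43.7, 48.3 and 20.9 CPM in LPS, against 85.5, 91.3 and 76.1 CPM in H2O libraries. Tlr4 itself fell with LPS (-1.16 ± 0.29; adjusted p 0.0104), did not pass with ENV (-0.56 ± 0.29; adjusted p 0.196), and differed by 0.61 (95% interval -0.30 to 1.51). Myd88, which encodes the adaptor, rose with ENV (0.74 ± 0.21; adjusted p 0.0294) and did not pass with LPS (0.38 ± 0.21; adjusted p 0.182), but the difference was 0.36 (95% interval -0.30 to 1.02).

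Many genes of NF-kB and its inhibitors rose with both agents, and more of them passed with LPS. With ENV 14 of 27 rose and with LPS 22 of 27, where 13.6% and 18.2% of all tested genes rose. The median changes were 1.06 and 1.36, and the LPS change was the larger one in 22. The median difference was -0.47, against 0.078 over all tested genes. At an unadjusted p under 0.05 were 3 members, all with the LPS response above, against 2.43% of all tested genes. Without the LPS and H2O libraries numbered 3 the median difference was -0.16, with 18 members up with each agent. At an unadjusted p under 0.05 were then 3 members with the LPS and 1 with the ENV response above, against 6.23% and 4.78% of the genes tested there. Nfkbie had 101, 79.8 and 75.9 CPM in ENV, against 62.1, 52.0 and 65.5 CPM in buffer libraries, and 198, 148 and 199.7 CPM in LPS, against 71.1, 76.2 and 64.7 CPM in H2O libraries. This gene, for the inhibitor IkB-epsilon, rose with both, every LPS library was above every ENV library, and the difference was -0.85 (95% interval -1.34 to -0.35; adjusted p 0.575); with a replicate block its ENV call was lost (adjusted p 0.0539). Nfkbia had 165, 166 and 169 CPM in ENV, against 54.2, 61.3 and 78.6 CPM in buffer libraries, and 249, 199 and 439 CPM in LPS, against 64.7, 83.6 and 79 CPM in H2O libraries. The gene for IkB-alpha rose with both (ENV 1.37 ± 0.26, LPS 1.96 ± 0.26), all LPS libraries lay above all ENV libraries, and the difference was -0.60 (95% interval -1.41 to 0.21; adjusted p 0.752). Tnfaip3, which encodes the ubiquitin-editing enzyme A20, was called in neither response and differed by -0.17 (95% interval -1.10 to 0.76).

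Feedback genes outside NF-kB also had a median difference below 0, with the LPS response above in 14 of 18 and the ENV response above in 4. In the list of endotoxin tolerance and anti-inflammatory feedback, 11 of 18 rose and 1 fell with ENV, and 14 rose with LPS. Over all tested genes 13.6% rose and 9.49% fell with ENV, and 18.2% rose with LPS. The median difference of the list was -0.73 (-0.42 without the libraries numbered 3). At an unadjusted p under 0.05 were 5 members, all with the LPS response above, against 2.43% of all tested genes. Without the libraries numbered 3 they were 4 with the LPS and 2 with the ENV response above, against 6.23% and 4.78% of the genes tested there. Socs3 had 139, 99.7 and 117 CPM in ENV, against 2.73, 2.96 and 4.51 CPM in buffer libraries, and 189, 145 and 541 CPM in LPS, against 1.96, 1.93 and 3.48 CPM in H2O libraries. Socs3, an inhibitor of cytokine receptor signalling, rose with both agents (ENV 5.12 ± 0.46, LPS 6.88 ± 0.46), every LPS library exceeded every ENV library, and the difference was -1.76 (95% interval -3.21 to -0.32; adjusted p 0.693). Dusp2 had 45.4, 25.3 and 26.7 CPM in ENV, against 2.24, 2.88 and 2.63 CPM in buffer libraries, and 62.0, 67 and 197 CPM in LPS, against 2.17, 3.53 and 1.53 CPM in H2O libraries. Dusp2, a phosphatase gene of MAP kinases, rose with both and differed by -1.85 (95% interval -3.31 to -0.38; adjusted p 0.689). Zfp36 had 64.6, 50.8 and 42.9 CPM in ENV, against 45.2, 41.3 and 50.3 CPM in buffer libraries, and 117, 106 and 219.8 CPM in LPS, against 70.1, 62.6 and 66.8 CPM in H2O libraries. Zfp36 encodes tristetraprolin, which marks cytokine mRNA for decay; it rose with LPS (1.15 ± 0.25; adjusted p 0.00583) and did not pass with ENV (0.21 ± 0.25; adjusted p 0.601), where treated and vehicle libraries overlapped. Il10 had 17.5, 18.1 and 20.4 CPM in ENV, against 1.10, 1.95 and 3.08 CPM in buffer libraries, and 35.9, 50.4 and 65.2 CPM in LPS, against 1.68, 3.68 and 0.195 CPM in H2O libraries. Il10, the anti-inflammatory cytokine, rose with both; LPS libraries all lay above ENV libraries, but the difference of -1.59 had a wide interval (95% interval -3.73 to 0.56; adjusted p 0.752).

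Cytokine genes rose in part with both agents, and several were by far the highest in LPS library 3. With ENV 9 of 22 rose and 4 fell, with LPS 15 rose and 2 fell, and the median difference was -0.73. Over all tested genes 13.6% rose and 9.49% fell with ENV, and 18.2% rose and 18.8% fell with LPS. Without the libraries numbered 3 the counts in the list were 13 up and 5 down with ENV and 13 up and 2 down with LPS. The median difference was then -0.48. The number called with ENV thus depended on which LPS and H2O libraries entered the fit. The same fit gave both responses, so the SE with ENV also holds the spread of the LPS and H2O set. The biological coefficient of variation was 45.4% in that set, against 23.0% among ENV and buffer libraries. A pass with LPS and not with ENV, as for Tnf below, is therefore no measure of a difference between the agents. Tnf had 115, 175 and 113 CPM in ENV, against 65.1, 70.0 and 70.4 CPM in buffer libraries, and 86.3, 179 and 675 CPM in LPS, against 61.8, 45.3 and 58.3 CPM in H2O libraries. Tnf rose with LPS (2.51 ± 0.57; adjusted p 0.0083) and did not pass with ENV (0.97 ± 0.57; adjusted p 0.258), although all ENV libraries were above all buffer libraries; the difference was -1.54 (95% interval -3.32 to 0.24), and -0.48 (95% interval -1.45 to 0.49) without the libraries numbered 3. Il1b had 2169, 3064 and 3305 CPM in ENV, against 153, 195 and 418 CPM in buffer libraries, and 1600.0, 1604 and 6645 CPM in LPS, against 181, 239.6 and 95.9 CPM in H2O libraries. This gene for interleukin-1 beta rose with both, LPS library 3 was above and LPS libraries 1 and 2 below all ENV libraries, and the difference of -0.77 (95% interval -2.63 to 1.08) turned to 0.42 (95% interval -0.75 to 1.60) without the libraries numbered 3. Csf3 had 6.88, 7.26 and 5.40 CPM in ENV, against 0.0325, 0.0291 and 0.0299 CPM in buffer libraries, and 6.58, 3.46 and 271 CPM in LPS, against 0, 0 and 0.0865 CPM in H2O libraries. Csf3 encodes the granulocyte growth factor G-CSF and rose with both, at like levels in the ENV and the first 2 LPS libraries, while LPS library 3 was far above all others. With 3 and 4 counts in the buffer and H2O groups, its fitted changes depend on the prior count and are no bounds, as for Il6, Il12b, Arg1 and Ccl5 below, and only levels are described here. Il6 had 9.42, 9.87 and 5.34 CPM in ENV, against 0, 0.0872 and 0 CPM in buffer libraries, and 16.8, 7.02 and 171 CPM in LPS, against 0.129, 0.0967 and 0.0432 CPM in H2O libraries. Il12b had 3.18, 0.880 and 0.971 CPM in ENV, against 0.130, 0.0872 and 0 CPM in buffer libraries, and 3.72, 2.21 and 12.5 CPM in LPS, against 0.0516, 0 and 0.0216 CPM in H2O libraries. Both rose with both agents, Il6 as the acute-phase cytokine and Il12b as the shared subunit of interleukins 12 and 23, and both were highest in LPS library 3.

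A pair of cytokine genes passed the test with ENV and not with LPS. Tnfsf9 had 8.86, 10.2 and 5.79 CPM in ENV, against 26, 34.3 and 24.4 CPM in buffer libraries, and 15.3, 12.6 and 11.5 CPM in LPS, against 15.7, 10.8 and 16.9 CPM in H2O libraries. Tnfsf9 encodes the ligand of the co-stimulatory receptor 4-1BB; it fell with ENV (-1.77 ± 0.24; adjusted p 8.89e-04), with no overlap, and not with LPS (-0.14 ± 0.24; adjusted p 0.68), and the difference was -1.63 (95% interval -2.39 to -0.86; adjusted p 0.538), with an adjusted p of 0.0292 without the libraries numbered 3 and with a replicate block (0.00986 to 0.973 over the alternatives). Osm had 9.27, 7.23 and 6.67 CPM in ENV, against 13.4, 13.0 and 12.3 CPM in buffer libraries, and 9.74, 7.02 and 9.53 CPM in LPS, against 9.65, 8.66 and 9.01 CPM in H2O libraries. Osm, oncostatin M, fell with ENV (-0.74 ± 0.17; adjusted p 0.0124), had -0.056 ± 0.17 with LPS (adjusted p 0.822) and differed by -0.68 (95% interval -1.22 to -0.14; adjusted p 0.689); buffer libraries were above the H2O libraries in both genes. Il18, of the interleukin-1 family, rose with LPS (1.81 ± 0.28; adjusted p 9.68e-04) and had 0.79 ± 0.28 with ENV (adjusted p 0.0675); the difference was -1.02 (95% interval -1.90 to -0.15; adjusted p 0.693).

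Over all 12 libraries the chemokine lists had the most negative median differences of the 27 gene lists, which was not so without the libraries numbered 3, where MHC class I genes had -0.84. Of 9 CC chemokine genes 6 rose with ENV and 7 with LPS, where 13.6% and 18.2% of all tested genes rose. Without the libraries numbered 3, 8 of them rose with ENV and 7 with LPS. Their median difference was -1.04, which was -0.21 without those libraries. As with the cytokine genes, the number called with ENV depended on which LPS and H2O libraries entered the fit. A pass with LPS and not with ENV, as for Ccl4 and Ccl3 below, is therefore no measure of a difference between the agents. Ccl4 had 130.3, 184 and 137 CPM in ENV, against 57.0, 67.9 and 50.0 CPM in buffer libraries, and 467, 334 and 2505 CPM in LPS, against 59.3, 57.9 and 34.4 CPM in H2O libraries. Ccl4 attracts monocytes and T cells. It rose with LPS (4.45 ± 0.61; adjusted p 9.80e-04) and did not pass with ENV (1.37 ± 0.62; adjusted p 0.146) even though all ENV libraries exceeded all buffer libraries. Every LPS library was above every ENV library, and the difference was -3.08 (95% interval -5.01 to -1.15; adjusted p 0.63) and -1.55 (95% interval -2.25 to -0.86; adjusted p 0.117, and 0.0487 with a replicate block) without the libraries numbered 3; over the alternatives the adjusted p was 0.0398 to 0.973. Ccl3 had 611, 788 and 953 CPM in ENV, against 163, 174 and 229 CPM in buffer libraries, and 959, 859.5 and 8955 CPM in LPS, against 140.3, 139 and 167 CPM in H2O libraries. Its neighbour in function, Ccl3, rose with LPS (4.59 ± 0.72; adjusted p 0.0021); with ENV it had 2.06 ± 0.73 (adjusted p 0.0749, and 0.0307 with a replicate block), and the difference of -2.54 (95% interval -4.81 to -0.26) was -0.78 (95% interval -1.41 to -0.16) without the libraries numbered 3. Ccl2 had 567, 592 and 382 CPM in ENV, against 35.3, 31.7 and 21.5 CPM in buffer libraries, and 859.8, 490.4 and 3390.4 CPM in LPS, against 77.4, 30.8 and 24.6 CPM in H2O libraries. Ccl2, which recruits monocytes, rose with both; its difference changed sign, -1.04 (95% interval -3.06 to 0.99) over all libraries and 0.32 (95% interval -0.98 to 1.63) without the libraries numbered 3. Ccl5 had 25.3, 8.30 and 11.1 CPM in ENV, against 0, 0 and 0.0299 CPM in buffer libraries, and 59.6, 26.9 and 32.3 CPM in LPS, against 0.0774, 0.0242 and 0.0649 CPM in H2O libraries. Ccl5, a T-cell attractant, rose with both agents, and LPS libraries overlapped with none of the ENV libraries. The labels do not say how reads shared by close relatives such as Ccl3 and Ccl4 were counted.

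CXC chemokine genes rose in 8 of 11 cases with ENV and in 9 with LPS, where 13.6% and 18.2% of all tested genes rose. Their median difference was -0.85, which was -0.54 without the libraries numbered 3 and 0.31 under limma voom with sample quality weights. Cxcl10 had 497, 69.0 and 143 CPM in ENV, against 1.72, 3.25 and 4.00 CPM in buffer libraries, and 2035, 1597 and 1522 CPM in LPS, against 2.40, 4.38 and 1.97 CPM in H2O libraries. Cxcl10 encodes an interferon-induced attractant of T cells. It rose with both agents (ENV 6.30 ± 0.63, LPS 9.20 ± 0.62), the 3 LPS libraries lay above all ENV libraries, and ENV library 1 was the highest of its group. The difference was -2.91 (95% interval -4.87 to -0.94; adjusted p 0.666), and -2.91 (95% interval -5.21 to -0.61; adjusted p 0.346) without the libraries numbered 3. Cxcl1 had 34.5, 49.6 and 17.2 CPM in ENV, against 1.20, 1.92 and 1.26 CPM in buffer libraries, and 73.1, 17.1 and 849 CPM in LPS, against 2.17, 0.822 and 1.60 CPM in H2O libraries. Cxcl1, a neutrophil attractant, also rose with both, but its LPS libraries spanned those of ENV. Its difference of -3.15 (95% interval -6.61 to 0.32) was -0.54 (95% interval -2.71 to 1.63) without the libraries numbered 3, and LPS library 3 was far above the others.

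Of the panel of 32 genes, Ifnb1 (interferon beta) did not pass the filter on low counts.

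**Figure D3:**
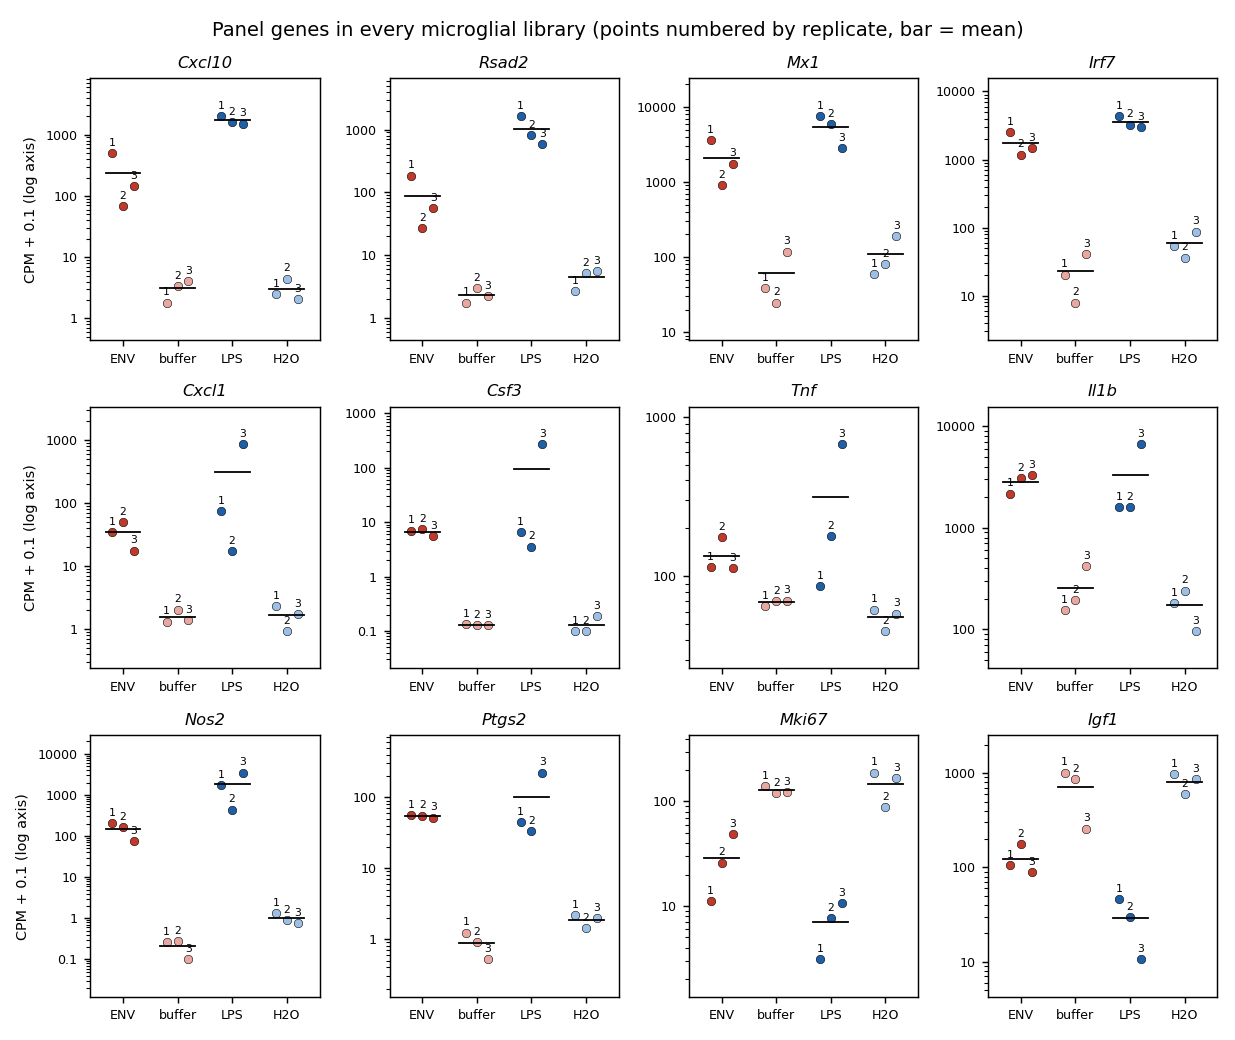
Level of 12 panel genes in each library (CPM plus 0.1, log axis; points numbered by replicate, bar the mean; ENV, buffer, LPS and H2O from left to right). LPS exceeds ENV in all libraries of Cxcl10 and Rsad2, LPS library 3 alone exceeds ENV in Csf3, Il1b and Ptgs2, and Mki67 and Igf1 are lowest in the LPS libraries.

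Interferon-stimulated antiviral genes rose together with both agents, 41 of 42 tested members with ENV and 42 with LPS, where 13.6% and 18.2% of all tested genes rose. Ifit1, near the detection limit, was the member not called with ENV. The median change was 3.25 with ENV and 3.53 with LPS, and the LPS change was the larger one in 33 of 42; the median difference was -0.46, and -0.80 without the libraries numbered 3. At an unadjusted p under 0.05, 7 members had the LPS response above (2.43% of all tested genes), and 10 did without the libraries numbered 3 (6.23% of the genes tested there). Rsad2 had 184, 26.5 and 56.0 CPM in ENV, against 1.66, 2.88 and 2.15 CPM in buffer libraries, and 1659, 819 and 585 CPM in LPS, against 2.55, 5.05 and 5.45 CPM in H2O libraries. Rsad2 encodes viperin, an antiviral enzyme, and rose with both agents (ENV 5.31 ± 0.67, LPS 7.87 ± 0.64). Its LPS libraries were all above its ENV libraries, and the difference was -2.56 (95% interval -4.61 to -0.51; adjusted p 0.693). Herc6 had 161, 68.1 and 88.8 CPM in ENV, against 8.15, 7.41 and 9.5 CPM in buffer libraries, and 507, 339 and 474 CPM in LPS, against 10.4, 10.9 and 15.2 CPM in H2O libraries. Herc6, a ligase gene of the interferon system in rodents, rose with both and differed by -1.51 (95% interval -2.45 to -0.57; adjusted p 0.604). Cmpk2 had 202, 37.8 and 90.3 CPM in ENV, against 3.90, 5.61 and 6.57 CPM in buffer libraries, and 1245, 703 and 387 CPM in LPS, against 5.01, 6.51 and 10.8 CPM in H2O libraries. Helz2 had 112, 58.9 and 88.3 CPM in ENV, against 15.3, 12.8 and 13.1 CPM in buffer libraries, and 271, 248 and 214 CPM in LPS, against 21.5, 17.4 and 22.9 CPM in H2O libraries. Cmpk2, a mitochondrial nucleotide kinase gene next to Rsad2, and Helz2, a helicase gene, both rose with both agents, with every LPS library above every ENV library. They differed by -2.35 (95% interval -4.18 to -0.52; adjusted p 0.689) and -0.91 (95% interval -1.57 to -0.25; adjusted p 0.67).

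Other interferon genes had smaller differences. Irf7 had 2543, 1177 and 1471 CPM in ENV, against 20.2, 7.82 and 40.5 CPM in buffer libraries, and 4391, 3259 and 3024 CPM in LPS, against 53.5, 36.1 and 86.8 CPM in H2O libraries. Irf7, the transcription factor that amplifies type I interferon, rose with both (ENV 6.24 ± 0.53, LPS 5.92 ± 0.53). All LPS libraries lay above the ENV libraries, but H2O libraries 1 and 3 also lay above the buffer libraries, and the difference was 0.32 (95% interval -1.33 to 1.98; adjusted p 0.955), with the sign reversed without the libraries numbered 3 (-0.30, 95% interval -2.07 to 1.46). Mx1 had 3620.2, 909 and 1754 CPM in ENV, against 38.9, 24.7 and 118 CPM in buffer libraries, and 7616, 5944 and 2824 CPM in LPS, against 58.8, 80.9 and 189.7 CPM in H2O libraries. Mx1, a GTPase against influenza and related viruses, rose with both, overlapped between ENV and LPS libraries, and differed by -0.52 (95% interval -2.70 to 1.65). Isg15 had 379, 117 and 257 CPM in ENV, against 1.40, 1.89 and 9.71 CPM in buffer libraries, and 615, 593 and 524 CPM in LPS, against 2.14, 4.04 and 10.4 CPM in H2O libraries. Isg15, a ubiquitin-like modifier, rose with both, had all LPS above all ENV libraries, and differed by -0.85 (95% interval -3.15 to 1.46). In Cxcl10, Rsad2, Irf7, Mx1 and Isg15 alike, ENV library 2 was the lowest and ENV library 1 the highest of the ENV group. Eif2ak2 had 307, 234 and 257 CPM in ENV, against 54.6, 48.0 and 55.5 CPM in buffer libraries, and 422, 411 and 369 CPM in LPS, against 84.5, 81.2 and 84.1 CPM in H2O libraries. Eif2ak2, the double-stranded RNA sensor PKR, rose by 2.33 ± 0.12 with ENV and 2.27 ± 0.12 with LPS, with a difference of 0.066 (95% interval -0.31 to 0.44). Both its LPS libraries and its H2O libraries were above those of the ENV set. Counts of the Ifit and Oas families may share reads between paralogs.

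The start regions of these genes show what they share in sequence. Promoters (250 bases before to 50 after the start) were read from RefSeq, build GRCr8, on the strand of the gene, and 9903 tested genes had an entry. The core of the interferon-stimulated response element, searched as TTTC, any 2 bases and TTTC, was found on either strand in 19 of 30 promoters of interferon-stimulated genes (63.3%), in 9 of 15 of the MHC class I list (60%) and in 293 of all 9903 (2.96%). A form of the NF-kB site, searched as GGG, any 2 bases and TTTCC, was found in 6 of 22 promoters of the NF-kB list (27.3%) and in 178 of all (1.80%). Both hold the run TTTC and could overlap, and a match is a description of these letters, not of a bound site. Rsad2 and Cxcl10, with the LPS response above, and Irf7, with a difference of 0.32, all hold the first string, and Cxcl1 holds the second 2 times. They are printed with matches in capitals (a match on the opposite strand reads as the reverse complement, with GAAA in place of TTTC).
Cxcl10 (chr14:15988816-15989115, plus strand; match from -243): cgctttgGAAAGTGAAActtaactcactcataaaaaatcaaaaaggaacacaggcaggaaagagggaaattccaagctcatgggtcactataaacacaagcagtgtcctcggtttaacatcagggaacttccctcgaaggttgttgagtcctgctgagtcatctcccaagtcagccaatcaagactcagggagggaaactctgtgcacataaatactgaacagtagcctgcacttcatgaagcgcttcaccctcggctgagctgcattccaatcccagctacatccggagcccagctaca
Rsad2 (chr6:48788071-48788370, minus strand; match from -147): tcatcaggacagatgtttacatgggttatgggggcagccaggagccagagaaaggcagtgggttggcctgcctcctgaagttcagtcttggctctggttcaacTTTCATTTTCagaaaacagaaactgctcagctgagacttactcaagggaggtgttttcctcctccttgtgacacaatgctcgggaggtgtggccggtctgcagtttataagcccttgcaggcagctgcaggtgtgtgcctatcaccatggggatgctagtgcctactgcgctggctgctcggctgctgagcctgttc
Irf7 (chr1:205799974-205800273, minus strand; match from -69): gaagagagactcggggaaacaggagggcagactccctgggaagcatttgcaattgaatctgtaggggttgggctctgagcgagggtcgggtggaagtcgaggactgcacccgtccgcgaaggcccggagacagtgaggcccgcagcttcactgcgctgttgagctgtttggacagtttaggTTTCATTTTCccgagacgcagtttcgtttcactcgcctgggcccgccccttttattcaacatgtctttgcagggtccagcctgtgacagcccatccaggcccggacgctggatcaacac
Cxcl1 (chr14:17479272-17479571, minus strand; matches from -102 and -84): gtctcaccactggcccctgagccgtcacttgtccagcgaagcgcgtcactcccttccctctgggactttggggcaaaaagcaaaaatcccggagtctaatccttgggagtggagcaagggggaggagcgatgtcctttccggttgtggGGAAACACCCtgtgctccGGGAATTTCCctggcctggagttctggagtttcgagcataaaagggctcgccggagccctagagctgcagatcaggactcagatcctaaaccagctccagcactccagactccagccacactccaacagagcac
Positions are of the first matched base before the start. No difference of these genes was called over all 12 libraries, and that of Irf7 changed sign in 5 alternatives. The panel gene Mx1, which also rose with both agents, held neither string. Whether the strings bear on the differences was not tested.

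Genes of antigen presentation on MHC class I also rose with both agents. With ENV 15 of 18 members rose and with LPS all 18, where 13.6% and 18.2% of all tested genes rose. The medians were 1.24 and 1.78, and the LPS change was the larger one in 15. The median difference was -0.48 (-0.84 without the libraries numbered 3). At an unadjusted p under 0.05 were 4 members, all with the LPS response above, against 2.43% of all tested genes. Without those libraries 7 members were, against 6.23% of the genes tested there. Tap1 had 204, 117 and 138 CPM in ENV, against 44.5, 39.4 and 48.1 CPM in buffer libraries, and 449, 386 and 404 CPM in LPS, against 46.7, 66.7 and 36.0 CPM in H2O libraries. Tap1 encodes a subunit of the peptide pump of the endoplasmic reticulum; it rose with both (ENV 1.80 ± 0.24, LPS 3.05 ± 0.24), every LPS library was above every ENV library, and the difference was -1.25 (95% interval -2.01 to -0.50; adjusted p 0.579). Nlrc5 had 127, 51.9 and 73.6 CPM in ENV, against 11.3, 9.5 and 7.62 CPM in buffer libraries, and 264, 230.0 and 133 CPM in LPS, against 11.1, 10.0 and 9.56 CPM in H2O libraries. Nlrc5, the transactivator of class I genes, rose with both and differed by -1.20 (95% interval -2.23 to -0.18; adjusted p 0.693). Tap2, the other subunit of the pump, differed by -0.68 (95% interval -1.30 to -0.064). B2m had 4475, 3037 and 3454 CPM in ENV, against 1786, 1469 and 2000.2 CPM in buffer libraries, and 5442, 4590.0 and 4957 CPM in LPS, against 2151, 1721 and 1933 CPM in H2O libraries. B2m, the light chain of all class I molecules, rose with both and differed by only -0.31 (95% interval -0.88 to 0.26). All 7 guanylate-binding and immunity-related GTPase genes tested rose with both agents, with a median difference of -0.50. Gbp2 had 313, 133 and 182 CPM in ENV, against 19.9, 17.2 and 24.1 CPM in buffer libraries, and 695, 616 and 567 CPM in LPS, against 31.3, 40.6 and 23.2 CPM in H2O libraries. Gbp2, which attacks vacuoles of intracellular pathogens, differed by -0.94 (95% interval -1.88 to -0.0066; adjusted p 0.703). Reads of RT1 genes could be split among near-identical copies.

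Of 14 tested genes for class II antigen presentation and T-cell co-stimulation, 9 rose with ENV and 8 with LPS. Over all tested genes 13.6% rose with ENV and 18.2% with LPS. The median difference of the 14 genes was 0.26. Without the libraries numbered 3, 10 rose and 3 fell with ENV, 4 rose with LPS, and the median difference turned to -0.25; it was also below 0 without ENV library 1, LPS library 3 or H2O library 3 alone. The member with the smallest p of the difference was Cd40. Cd40 had 30.9, 31.7 and 27.8 CPM in ENV, against 10.7, 13.6 and 11.6 CPM in buffer libraries, and 70.1, 50.0 and 128 CPM in LPS, against 10.3, 8.22 and 5.90 CPM in H2O libraries. Cd40, the receptor for T-cell help, rose with both (ENV 1.33 ± 0.31, LPS 3.35 ± 0.31). LPS libraries all lay above ENV libraries, and the difference was -2.02 (95% interval -2.98 to -1.05; adjusted p 0.538) and -1.52 (95% interval -2.09 to -0.94; adjusted p 0.0837, and 0.0335 with a replicate block) without the libraries numbered 3; over the alternatives the adjusted p was 0.00418 to 0.973. Cd74 had 21.3, 10.8 and 6.54 CPM in ENV, against 3.70, 1.31 and 4.30 CPM in buffer libraries, and 5.37, 3.55 and 10.5 CPM in LPS, against 2.40, 5.08 and 3.20 CPM in H2O libraries. Cd74, the invariant chain of class II, rose with ENV (2.05 ± 0.57; adjusted p 0.0306) and did not pass with LPS (0.86 ± 0.57; adjusted p 0.268), with a difference of 1.19 (95% interval -0.60 to 2.98).

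Of 15 effector enzyme genes 11 rose with each agent, where 13.6% of all tested genes rose with ENV and 18.2% with LPS. Their median difference was -0.30, with a range of -0.93 to 0.0078 over the alternatives. Nos2 had 203, 165 and 75.4 CPM in ENV, against 0.162, 0.174 and 0 CPM in buffer libraries, and 1713, 439 and 3465 CPM in LPS, against 1.26, 0.822 and 0.670 CPM in H2O libraries. Nos2, the inducible nitric oxide synthase, rose with both; its LPS libraries were all above its ENV libraries, as were its H2O above its buffer libraries, and the difference was -0.67 (95% interval -3.78 to 2.44), with the sign reversed without the libraries numbered 3 (0.17). Acod1 had 241, 187 and 183 CPM in ENV, against 2.53, 1.60 and 0.837 CPM in buffer libraries, and 424, 147 and 283 CPM in LPS, against 1.06, 1.02 and 0.151 CPM in H2O libraries. Acod1, which makes itaconate, rose with both and differed by -1.66 (95% interval -3.46 to 0.15). Ptgs2 had 56.2, 54.9 and 51.8 CPM in ENV, against 1.14, 0.814 and 0.418 CPM in buffer libraries, and 44.4, 33.3 and 222 CPM in LPS, against 2.09, 1.33 and 1.88 CPM in H2O libraries. Ptgs2, the inducible cyclooxygenase, rose with both and had 0.29 (95% interval -1.77 to 2.34) over all libraries; without the libraries numbered 3 it was 1.45 (95% interval 0.43 to 2.47; adjusted p 0.288), with LPS libraries 1 and 2 below all ENV libraries. Gch1 had 97.5, 68.4 and 78.1 CPM in ENV, against 8.61, 7.50 and 10.0 CPM in buffer libraries, and 169, 131 and 196 CPM in LPS, against 12.1, 10.1 and 10.5 CPM in H2O libraries. Gch1 supplies the cofactor of nitric oxide synthase, rose with both, and differed by -0.70 (95% interval -1.28 to -0.13; adjusted p 0.693). Arg1 had 0.411, 0.440 and 0.712 CPM in ENV, against 0, 0.0581 and 0 CPM in buffer libraries, and 41.8, 6.87 and 12 CPM in LPS, against 0.155, 0.0242 and 0.0649 CPM in H2O libraries. Arg1, which competes for arginine, rose with both, and its LPS libraries were all above its ENV libraries.

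Acute-phase genes had a median difference above 0. Of 9 tested members 8 rose with ENV and 7 with LPS, where 13.6% and 18.2% of all tested genes rose. The median difference was 0.44. Lcn2 had 1466, 1208 and 765 CPM in ENV, against 0.325, 0.320 and 0.239 CPM in buffer libraries, and 1144, 1217 and 150.3 CPM in LPS, against 0.594, 0.218 and 0.0865 CPM in H2O libraries. Lcn2, a siderophore-binding protein, rose with both (ENV 11.91 ± 0.90, LPS 11.48 ± 0.85), and the difference was 0.44 (95% interval -2.30 to 3.17); LPS library 3 was the lowest of its group. Slpi had 32.9, 36.4 and 78.5 CPM in ENV, against 0.0975, 0.0581 and 0.149 CPM in buffer libraries, and 23.9, 25.7 and 29.3 CPM in LPS, against 0.284, 0.193 and 0.108 CPM in H2O libraries. Slpi, an inhibitor of leukocyte proteases, rose with both, with all ENV libraries above all LPS libraries, and differed by 1.80 (95% interval 0.24 to 3.37; adjusted p 0.693).

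Among 15 complement genes the ENV response was above in 10, with a median difference of 0.23, which was 0.065 without the libraries numbered 3 and -0.019 without ENV library 1. Among 22 immediate early and stress genes it was above in 10 and the LPS response in 12. Their median difference was -0.26 (-0.11 without the libraries numbered 3). At an unadjusted p under 0.05 were 1 member with the ENV response above and 2 with the LPS response above, against 4.63% and 2.43% of all tested genes. Those with the LPS response above are not described here. DESeq2 called 1 member of this list, which was not Fos. Fos had the smallest p of those with the ENV response above. C3 had 2437, 3184 and 2724 CPM in ENV, against 2125, 1102 and 1957 CPM in buffer libraries, and 1713, 1596 and 1198 CPM in LPS, against 2728, 2942 and 1502 CPM in H2O libraries. C3, the central complement protein, passed in neither response (ENV 0.69 ± 0.30, LPS -0.67 ± 0.30), with changes of opposite sign and a difference of 1.36 (95% interval 0.42 to 2.29; adjusted p 0.666). Cfp had 435, 317 and 408 CPM in ENV, against 138, 78.0 and 257 CPM in buffer libraries, and 411, 445 and 144 CPM in LPS, against 480.1, 568 and 290.4 CPM in H2O libraries. Cfp, properdin, stabilises the complement convertase; ENV libraries were all above buffer libraries (1.29 ± 0.48; adjusted p 0.0819, and 0.00876 with a replicate block), LPS libraries overlapped with H2O libraries (-0.42 ± 0.48), and H2O libraries were all above buffer libraries. Fos had 15.1, 15.6 and 11.9 CPM in ENV, against 5.88, 6.25 and 4.84 CPM in buffer libraries, and 7.07, 7.67 and 1.86 CPM in LPS, against 16.7, 11 and 6.44 CPM in H2O libraries. Fos, a subunit of AP-1, had 1.33 ± 0.47 with ENV (adjusted p 0.0683, and 0.00618 with a replicate block) and -1.04 ± 0.47 with LPS (adjusted p 0.109, and 0.00718 with a replicate block). Its ENV libraries were all above its buffer libraries, its LPS libraries overlapped with H2O, and the difference was 2.36 (95% interval 0.90 to 3.83; adjusted p 0.605), with an adjusted p of 0.0475 without the libraries numbered 3 and with a replicate block (0.0475 to 0.973 over the alternatives).

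Homeostatic microglial genes had larger negative changes with LPS, with no single difference past the adjusted threshold over all 12 libraries. Of 20 homeostatic genes 7 fell and 1 rose with ENV, and 10 fell with LPS, where 9.49% of all tested genes fell with ENV and 18.8% with LPS; the median change was -0.57 with ENV and -1.65 with LPS, and the median difference 0.84, which was 0.18 without the libraries numbered 3. With the ENV response above, 4 members were at an unadjusted p under 0.05 (4.63% of all tested genes), and 0 with the LPS response above. The LPS response was above in 4 of the 20 members. Without the libraries numbered 3, 4 members had the ENV response above at that threshold and 1 the LPS response (4.78% and 6.23% of the genes tested there). The microglial gene Tmem119 is named for a call, after its values were seen. Without those libraries and with a replicate block it differed by -2.30, with the LPS response above (edgeR, adjusted p 0.0203). Pros1 had 6.62, 9.49 and 8.09 CPM in ENV, against 49.5, 47.1 and 42.0 CPM in buffer libraries, and 3.97, 3.26 and 1.98 CPM in LPS, against 37.4, 40.2 and 47.5 CPM in H2O libraries. Pros1, protein S, bridges dying cells to phagocytic receptors; it fell with both (ENV -2.52 ± 0.22, LPS -3.76 ± 0.23), every ENV library was above every LPS library, and the difference was 1.24 (95% interval 0.54 to 1.95; adjusted p 0.566). Sall1 had 21.5, 16.3 and 20.8 CPM in ENV, against 42.0, 30.0 and 38.1 CPM in buffer libraries, and 6.95, 11 and 8.22 CPM in LPS, against 22.4, 46.0 and 43.2 CPM in H2O libraries. Sall1, a transcription factor of microglial identity, fell with both and differed by 1.19 (95% interval 0.33 to 2.04; adjusted p 0.666). P2ry12 had 22.3, 17.4 and 21.4 CPM in ENV, against 52.7, 38.5 and 57.3 CPM in buffer libraries, and 18.1, 18.1 and 1.38 CPM in LPS, against 59.3, 66.9 and 82.2 CPM in H2O libraries. P2ry12, the purine receptor that guides microglial processes, fell with LPS (-2.47 ± 0.63; adjusted p 0.0144) and had -1.28 ± 0.63 with ENV (adjusted p 0.178). Its difference of 1.19 (95% interval -0.78 to 3.15) was 0.38 (95% interval -0.15 to 0.91) without the libraries numbered 3, and LPS library 3 was far below the others. Trem2 had 92.2, 97.4 and 89.5 CPM in ENV, against 617, 591 and 739 CPM in buffer libraries, and 198, 81.2 and 28.2 CPM in LPS, against 629, 496 and 784 CPM in H2O libraries. Trem2, a lipid-sensing receptor, fell with both and differed by -0.17 (95% interval -1.75 to 1.42).

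Igf1 and Mrc1 also had higher levels in ENV than in LPS libraries. Igf1 had 105, 177 and 89.3 CPM in ENV, against 1009, 859 and 258 CPM in buffer libraries, and 46.4, 29.8 and 10.5 CPM in LPS, against 976, 603 and 861 CPM in H2O libraries. Igf1, a growth factor for oligodendrocytes and neurons, fell with both (ENV -2.52 ± 0.56, LPS -4.82 ± 0.56), every ENV library was above every LPS library, and the difference was 2.30 (95% interval 0.53 to 4.07; adjusted p 0.689). Mrc1 had 435, 693 and 586 CPM in ENV, against 880.1, 845 and 566 CPM in buffer libraries, and 425, 321 and 388 CPM in LPS, against 1427, 621 and 951 CPM in H2O libraries. Mrc1, the mannose receptor, fell with LPS (-1.40 ± 0.30; adjusted p 0.00504), did not pass with ENV (-0.42 ± 0.30; adjusted p 0.355), and differed by 0.99 (95% interval 0.052 to 1.92; adjusted p 0.693). Cd9 had 19.7, 39.1 and 44.0 CPM in ENV, against 278, 261 and 212 CPM in buffer libraries, and 11.8, 5.76 and 8.64 CPM in LPS, against 258, 216 and 213 CPM in H2O libraries. Cd9, a tetraspanin gene of the disease-associated list, fell with both and differed by 1.85 (95% interval 0.89 to 2.80; adjusted p 0.538).

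Cell cycle genes fell with both agents, 20 of 29 with ENV and 25 with LPS, where 9.49% and 18.8% of all tested genes fell, with medians of -1.62 and -2.34. The ENV response was above in 27 of 29, the median difference was 0.91 (0.73 without the libraries numbered 3), and 10 members were at an unadjusted p under 0.05 with the ENV response above, and 11 without those libraries (4.78% of the genes tested there). Mki67 had 11.1, 26 and 48.7 CPM in ENV, against 139, 120.0 and 123 CPM in buffer libraries, and 2.98, 7.53 and 10.5 CPM in LPS, against 188, 88.6 and 168 CPM in H2O libraries. Mki67, the proliferation marker Ki-67, fell with both (ENV -2.16 ± 0.52, LPS -4.41 ± 0.53); all ENV libraries lay above all LPS libraries, and the difference was 2.25 (95% interval 0.59 to 3.90; adjusted p 0.678). Plk1 had 2.28, 6.04 and 8.96 CPM in ENV, against 20.9, 20.9 and 29.6 CPM in buffer libraries, and 0.279, 0.986 and 2.05 CPM in LPS, against 21.5, 16.4 and 30.8 CPM in H2O libraries. Bub1b had 2.28, 6.41 and 7.44 CPM in ENV, against 19.0, 18.9 and 18.3 CPM in buffer libraries, and 0.279, 0.956 and 1.70 CPM in LPS, against 13.8, 12.2 and 22.2 CPM in H2O libraries. Plk1, a mitotic kinase gene, and Bub1b, of the spindle checkpoint, fell with both, with ENV libraries again all above LPS libraries. They differed by 2.33 (95% interval 0.47 to 4.19; adjusted p 0.691) and 2.24 (95% interval 0.54 to 3.94; adjusted p 0.689). Differences for genes of DNA replication were 0.10 (95% interval -0.63 to 0.83) for Pcna, the sliding clamp, and 0.51 (95% interval -0.32 to 1.33) for Mcm2, of the replicative helicase. Cdkn1a had 580.0, 325 and 171 CPM in ENV, against 119.8, 140.2 and 102 CPM in buffer libraries, and 1771, 858 and 732 CPM in LPS, against 171, 155 and 99.3 CPM in H2O libraries. Cdkn1a, the inhibitor p21, was the member that rose with both, and its difference was -1.41 (95% interval -2.80 to -0.033; adjusted p 0.703). B2m, Pcna, Mcm2 and Cdkn1a are named outside the rule for named genes, after their values were seen.

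**Figure D4:**
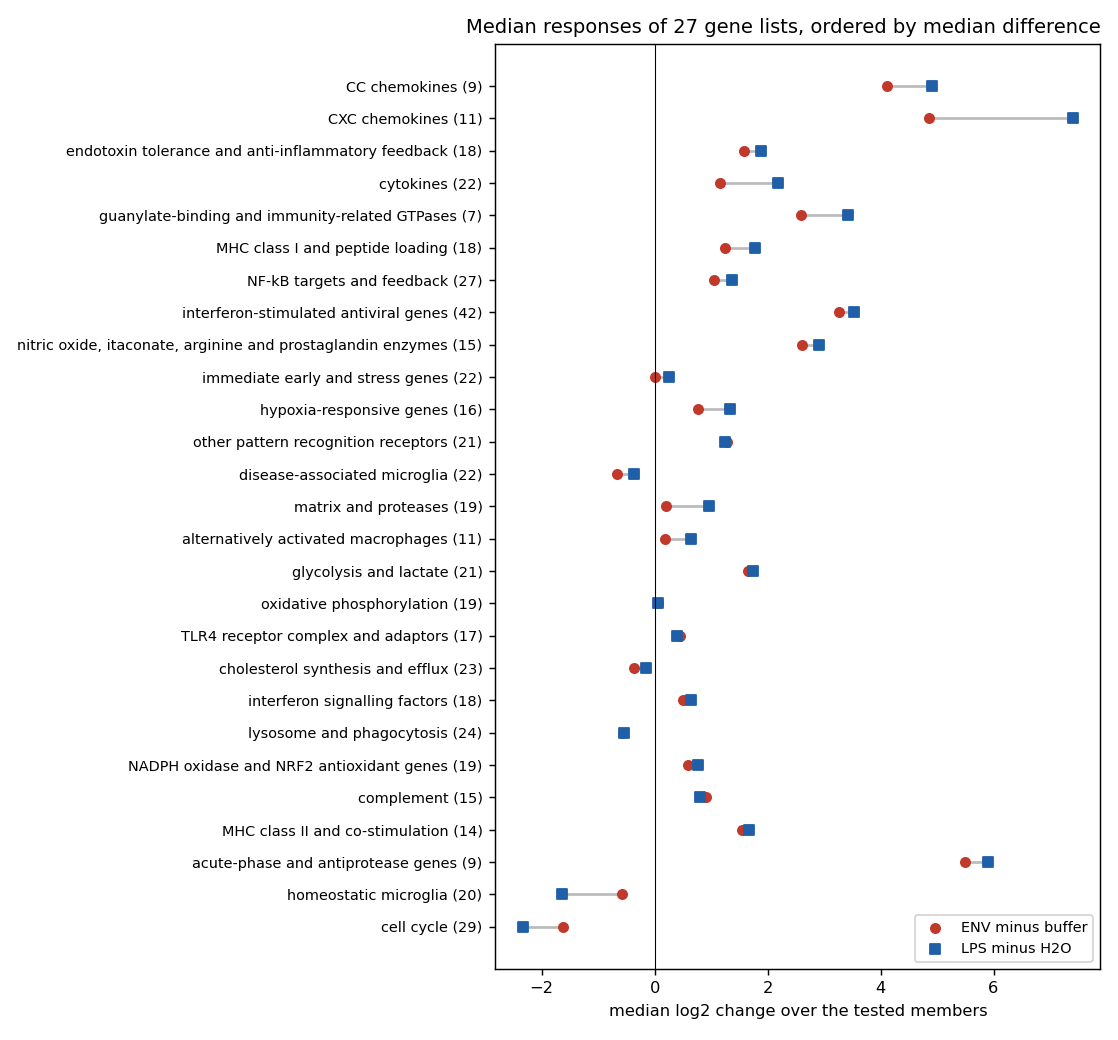
Median log2 change of 27 gene lists with ENV (circles) and LPS (squares), with the number of tested members in brackets, ordered by the median of the members' differences. Chemokine, feedback and interferon lists stand at the top with larger LPS changes, and cell cycle and homeostatic genes at the bottom with deeper falls in LPS.

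Some differences passed the edgeR threshold only under an alternative. Adamts4, a protease gene of aggrecan, was the gene called with a replicate block (adjusted p 0.0355, against 0.538 without it, and 0.00967 to 0.973 over all alternatives). Adamts4 had 11.3, 10.2 and 5.89 CPM in ENV, against 2.08, 1.48 and 0.657 CPM in buffer libraries, and 14.8, 12.2 and 56.8 CPM in LPS, against 0.181, 0.0967 and 0.432 CPM in H2O libraries. It rose with both, and buffer libraries lay above H2O libraries; the difference was -4.14 (95% interval -6.33 to -1.96). Without the LPS and H2O libraries numbered 3, Cd93 and Gabbr1 were called with the ENV response above, and Chadl, Olfm1, Hip1r, Igsf8, Aopep and Ch25h with the LPS response above; apart from Ch25h these genes were named for those calls, after their values were seen. Ch25h had 94.4, 120.1 and 114 CPM in ENV, against 96.5, 111 and 114 CPM in buffer libraries, and 231, 182 and 1028 CPM in LPS, against 51.1, 64.6 and 60.3 CPM in H2O libraries. Ch25h makes 25-hydroxycholesterol, an antiviral oxysterol; it rose with LPS (3.03 ± 0.52; adjusted p 0.00219) and not with ENV (0.033 ± 0.52; adjusted p 0.971), where treated and vehicle libraries overlapped. Its buffer libraries were all above its H2O libraries, as in Igsf8 below. Its difference was -3.0 (95% interval -4.63 to -1.37; adjusted p 0.538) and -1.94 (95% interval -2.48 to -1.41; adjusted p 0.0343) without those libraries, with adjusted p-values up to 0.973 over the alternatives. Hip1r had 44.3, 38.5 and 29.3 CPM in ENV, against 15.5, 20.5 and 19.0 CPM in buffer libraries, and 122, 97.5 and 253 CPM in LPS, against 1.03, 2.95 and 9.27 CPM in H2O libraries. Chadl had 13.9, 17.0 and 16.6 CPM in ENV, against 3.87, 4.85 and 3.68 CPM in buffer libraries, and 27.9, 25.9 and 48.2 CPM in LPS, against 0, 0.0242 and 0.778 CPM in H2O libraries. Hip1r, a clathrin adaptor gene, and Chadl, for a collagen-binding protein, rose with LPS (ENV adjusted p 0.258 and 0.0925, the second 0.0284 with a replicate block), and their buffer libraries lay above all H2O libraries. Buffer exceeded H2O by 2.04 and 3.87 log2 units, against differences of -4.12 (95% interval -6.02 to -2.23) and -4.97 (95% interval -7.48 to -2.47). Igsf8 had 78.9, 87.5 and 81.4 CPM in ENV, against 53.3, 64.5 and 59.4 CPM in buffer libraries, and 171, 149.7 and 99.9 CPM in LPS, against 45.9, 39.3 and 49.8 CPM in H2O libraries. Igsf8, a surface partner of tetraspanins, rose with LPS (1.64 ± 0.18) and had 0.48 ± 0.18 with ENV (adjusted p 0.0798); its difference was -1.16 (95% interval -1.72 to -0.59). LPS library 3, left out in the fit that called Cd93 and Gabbr1, had 10.7 CPM of Cd93 against 0.186 and 0.448, and 5.82 CPM of Gabbr1 against 0.310 and 0.329.

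**Figure D5:**
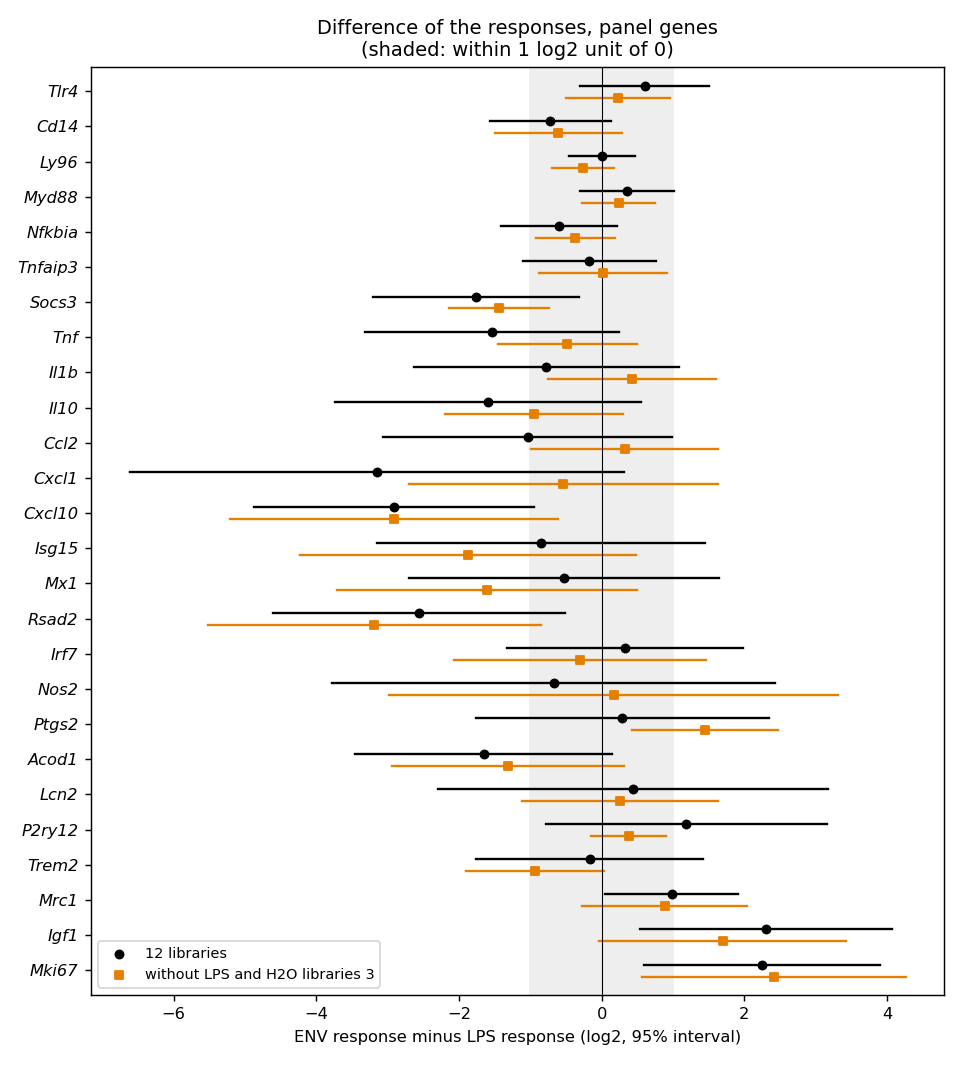
ENV response minus LPS response (log2, horizontal) with 95% intervals for the 26 panel genes that had more than 3 counts in every group, over 12 libraries (black circles) and without LPS and H2O libraries 3 (orange squares). Over 12 libraries the intervals of Cxcl10, Rsad2, Socs3, Mrc1, Igf1 and Mki67 leave out 0, and only that of Ly96 lies within the shaded range. Without LPS and H2O libraries 3, the intervals of 6 of the 31 tested panel genes lie within that range.

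Genes with strong and precisely measured changes in both responses were also named by the narrowest interval. They were Parp12, Bbln, Eif2ak2, Tesk2, Slc19a2 and Ifih1, each with at least 2 log2 units in both responses. Tesk2 had 42.1, 35.4 and 35.3 CPM in ENV, against 8.41, 7.41 and 10.5 CPM in buffer libraries, and 37.4, 44.5 and 41.9 CPM in LPS, against 9.96, 12.3 and 8.15 CPM in H2O libraries. Tesk2, a kinase gene of the actin cytoskeleton, rose by 2.10 ± 0.18 log2 units with ENV and 2.02 ± 0.17 with LPS, with ENV and LPS libraries overlapping and a difference of 0.078 (95% interval -0.47 to 0.63). Bbln had 251, 269 and 242 CPM in ENV, against 22.1, 21.2 and 26.8 CPM in buffer libraries, and 248, 206 and 155 CPM in LPS, against 25.5, 27.4 and 25.4 CPM in H2O libraries. Bbln rose by 3.44 ± 0.16 with ENV and 2.96 ± 0.16 with LPS and differed by 0.49 (95% interval -0.024 to 0.99). Ifih1 had 169, 112 and 123 CPM in ENV, against 33.8, 31 and 24.1 CPM in buffer libraries, and 279.8, 265 and 304 CPM in LPS, against 47.6, 41.1 and 41.1 CPM in H2O libraries. Ifih1, the RNA sensor MDA5, rose by 2.19 ± 0.17 with ENV and 2.71 ± 0.17 with LPS and differed by -0.52 (95% interval -1.07 to 0.018). Parp12 had 247, 166 and 177 CPM in ENV, against 48.8, 46.7 and 50.7 CPM in buffer libraries, and 384, 335 and 303 CPM in LPS, against 54.9, 58.8 and 58.4 CPM in H2O libraries. Parp12, an interferon-induced ADP-ribosyltransferase, differed by -0.56 (95% interval -1.03 to -0.081; adjusted p 0.693), and Slc19a2, a thiamine transporter gene, by -0.48 (95% interval -0.997 to 0.036).

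Glycolytic genes rose in 12 of 21 cases with ENV and 15 with LPS, where 13.6% and 18.2% of all tested genes rose. Their median difference was -0.11, which was -0.36 without the libraries numbered 3 and 0.063 without LPS library 1. Hk1 had 133, 135 and 112 CPM in ENV, against 31.7, 35.2 and 33.3 CPM in buffer libraries, and 167, 152 and 209 CPM in LPS, against 28, 25.0 and 36.6 CPM in H2O libraries. Hk1, the first enzyme of the pathway, rose with both, every LPS library was above every ENV library, and the difference was -0.63 (95% interval -1.15 to -0.12; adjusted p 0.693). In oxidative phosphorylation 17 of 19 members had their whole interval within 1 log2 unit of 0, in lysosome and phagocytosis 16 of 24 and in cholesterol synthesis and efflux 11 of 23, against 45.6% of all tested genes. Without the libraries numbered 3 the median differences of these lists were -0.16, -0.20 and -0.24, against 0.00032, 0.12 and 0.017 over all 12 libraries. Ctsl had 1388, 1308 and 1259 CPM in ENV, against 705, 773 and 957 CPM in buffer libraries, and 2080.4, 2257 and 3049 CPM in LPS, against 1120.2, 963 and 868 CPM in H2O libraries. Ctsl, the lysosomal protease cathepsin L, rose with both and differed by -0.62 (95% interval -1.18 to -0.062; adjusted p 0.693).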

How the data were processed

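Counts of 12 microglial libraries were used as the authors deposited them, as whole numbers per gene that were not normalized; 5345 of 23139 listed genes were at 0 in all 12. HISAT2, StringTie 1.3.3b and mRatBN7.2 are named per the submitters' processing notes; settings, annotation and strand are not given there, so reads of paralogs and of overlapping or antisense genes cannot be told apart. No libraries were identical, and 411 listed symbols are numbered copies.

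A single edgeR 4.0.16 fit in R 4.3.3 (filterByExpr, TMM, robust quasi-likelihood F test, 4 groups, 2-sided) gave both responses and their difference, with Benjamini-Hochberg adjustment over 13270 genes, a threshold of 0.05 and Wald intervals of 95%. CPM are normalised by TMM; counting floors of 3 counts cover counting error only. Where a group summed to at most 3 counts, no interval was given. Alternatives used DESeq2 1.42.0, limma 3.58.1, other scalings and filters, a replicate block and libraries left out; the block together with leaving out the LPS and H2O libraries numbered 3 was chosen after seeing the data. The procedure was tested on simulated data with 200 changed genes. It called 8.96% of simulated differences of 1 log2 unit, 50.7% of those of 2 and 68.2% of those of 3, with 4 false calls.

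The titles number the replicates but do not say that same-numbered libraries are paired. Deviations of same-numbered libraries from their group means correlated at 0.294, 0.432 and 0.413 between ENV and buffer. Between LPS and H2O they correlated at 0.518, 0.531 and 0.650. LPS library 1 with H2O library 2 had 0.362, and LPS library 2 with H2O library 1 had 0.369. All other differently numbered pairs had -0.545 to 0.0567. The main fit did not use the numbers. With a replicate block the calls were 3860 with ENV and 5743 with LPS, and 6 genes called in both had opposite signs.

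The members, the panel of 32 genes and the 27 function and 8 marker lists were chosen with earlier results of these data known. Named genes were the panel, the 5 smallest p of the difference in each direction among genes with an assigned symbol and a group mean that reached 10 CPM (since fewer than 5 were called), the 3 smallest p in each list and 6 genes with large same-sign changes and the narrowest intervals; exceptions are said in the text. Not every list member that this rule picks is described. The promoters are from RefSeq, build GRCr8, the first entry of each gene.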

Additional observations from a re-analysis of the deposited data

Results flagged for a closer look

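Sh3bp4, which encodes a regulator of receptor trafficking, and Marcksl1, which encodes an actin-binding substrate of protein kinase C, had changes of opposite sign in the 2 sets. Every ENV library was below every buffer library and every LPS library above every H2O library. Over all tested genes the first held for 24.8% and the second for 22.6%. The difference, ENV response minus LPS response, was -1.80 for Sh3bp4 (adjusted p 0.474 by edgeR's quasi-likelihood test) and -1.82 for Marcksl1 (adjusted p 0.538), so neither passed the threshold in that test. Both passed with DESeq2 (adjusted p 1.37e-04 and 0.0011) and with voom and sample weights (0.0366 and 0.0358), and Marcksl1 also without the LPS and H2O libraries numbered 3 and with the replicate block (0.0487); over the alternatives the adjusted p of both reached 0.973. The rises with LPS were called and the changes with ENV were not, and buffer was above H2O in both genes.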

How the results depend on the processing

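Of 2727 gene values recomputed under 22 alternatives, 2604 kept direction and side of the threshold, 60 passed it and 63 changed sign. DESeq2 called 23 genes with the ENV response above and 44 with the LPS response above, voom with weights 13 and 7, the replicate block 0 and 1, omission of the LPS and H2O libraries numbered 3 gave 2 and 6, and that with the replicate block 20 and 25. Leaving out single libraries gave 0 to 1 above (1 without LPS library 1) and 0 to 4 below (4 without LPS library 2). Members of lists called numbered 9 with DESeq2, 1 with the replicate block, 1 without the libraries numbered 3, 9 with both, and 0 with single libraries left out. ENV calls were 6704 with voom, 4620 without the libraries numbered 3 and 5444 with the replicate block added, and 1671 to 4059 over single libraries left out. LPS calls were 6009 with voom, 4519 without the libraries numbered 3 and 5175 with the replicate block added. Pearson r was 0.861, 0.847 and 0.839 in these fits and 0.814 to 0.921 over single libraries left out, and the slope 1.23 to 1.46. The replicate block changed the ENV or LPS calls given with a blocked value, and that of Gabbr1 with LPS (adjusted p 0.0210), and no other call printed here.
Signs reversed with voom for Ccl2 (0.17), Il1b (0.78), Il6 (0.89), Nos2 (0.13) and Tnfaip3 (0.016). Without the libraries numbered 3, and in brackets with the replicate block added, they reversed for Ccl2 0.32 (0.25), Eif2ak2 -0.14 (-0.15), Il1b 0.42 (0.51), Il6 1.09 (1.16), Irf7 -0.30 (-0.11), Ly96 -0.26 (-0.26), Nos2 0.17 (0.38) and Tnfaip3 0.018 (0.071). Ly96 also had -0.058 with DESeq2 and median-of-ratios factors, -0.023 with upper-quartile factors, -0.091 without a filter and -0.0055 at 1 CPM; without a filter Eif2ak2 had -0.030 and Tesk2 -0.012, and the replicate block gave Trem2 0.18. Over single libraries left out, differences spanned -1.71 to 0.040 for Ccl2, -0.0053 to 2.55 for Ccl5, -7.03 to 0.28 for Csf3, -0.14 to 0.15 for Eif2ak2, -1.13 to 0.14 for Il1b, -2.14 to 1.67 for Il6, -0.0024 to 0.43 for Irf2, -0.13 to 0.91 for Irf7, -1.69 to 0.43 for Isg15, -0.50 to 0.90 for Lcn2, -0.24 to 0.10 for Ly96, -1.25 to 0.27 for Mx1, -0.17 to 1.51 for Ptgs2, -0.095 to 0.22 for Tesk2, -0.49 to 0.080 for Tnfaip3 and -0.75 to 0.75 for Trem2. For Il6, Csf3 and Ccl5 these fitted values depend on the prior count and are no bounds. The causes were not tested. The median difference kept its sign in all 22 alternatives for the lists of NF-kB, cytokine, CC chemokine, interferon-stimulated, MHC class I, feedback, homeostatic, cell cycle and acute-phase genes.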

Other observations

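Genes of the disease-associated microglial state, which microglia take up around plaques and in demyelination, moved in both directions with both agents. Of 22 tested members 5 rose and 11 fell with ENV, and 5 rose and 10 fell with LPS, with median changes of -0.66 and -0.36 and a median difference of -0.18 (-0.45 without the LPS and H2O libraries numbered 3, 0.11 without LPS library 1). Over all tested genes 13.6% rose and 9.49% fell with ENV, and 18.2% rose and 18.8% fell with LPS. Hypoxia-responsive genes rose in 5 of 16 cases with ENV and 9 with LPS, and 0 fell with either. Their median difference was -0.21, and it was -0.33 without the libraries numbered 3 and 0.099 without LPS library 1. Genes of the NADPH oxidase and the NRF2 response rose in 8 of 19 cases with ENV and in 9 with LPS, where 1 fell. Genes of other pattern recognition receptors rose in 14 of 21 cases with ENV and in 16 with LPS, where 1 fell, with a median difference of -0.20 (-0.32 without the libraries numbered 3). Astrocyte markers summed to 131 to 275 CPM in ENV, 222 to 292 in buffer, 28.5 to 56.2 in LPS, and 65.6, 77.0 and 272 CPM in H2O libraries, with library 3 last. Markers of granulocytes and blood monocytes summed to 367 to 692 CPM in ENV, 53.8 to 106 in buffer, 399 to 575 in LPS and 87.2 to 110 CPM in H2O libraries; 5 of 7 tested members rose with each agent.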
